A study of Pinus pinaster with 36 samples.

Results

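Maritime pine (Pinus pinaster) is a Mediterranean conifer, and its needles are the organ in which it photosynthesises. The comparison described here set 6 needle libraries from seedlings fed ammonium against 6 from seedlings fed nitrate, 12 of the 36 libraries of the study, with the CO2 level of the air as a covariate. Its members were taken from the sample labels, and transcripts were described where their mean level over the 12 needle libraries was at least 1 CPM. CPM is the count of a transcript divided by the total count of its library and multiplied by 1e+06. The seedlings were 2 months old, of the provenance Segura, and had been watered every week for 1 month with 40 mL of 8 mM ammonium chloride or of 8 mM potassium nitrate, in air with 400 or 720 ppm CO2. Each of the 4 groups (ammonium at 400 ppm, ammonium at 720 ppm, nitrate at 400 ppm and nitrate at 720 ppm) held 3 libraries, and every library came from a pool of 12 seedlings that also gave a stem and a root library. The nitrogen forms came with different counter-ions, so an effect of ammonium or nitrate and an effect of chloride or potassium cannot be told apart. No group without added nitrogen was analysed here, so higher with ammonium and lower with nitrate are the same statement.

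Plants take up nitrate and ammonium through separate transporters in the roots. Nitrate has to be reduced to nitrite by nitrate reductase and then to ammonium by nitrite reductase before its nitrogen can enter amino acids, and nitrate itself acts as a signal that induces many genes of its own uptake and reduction. Ammonium enters amino acids directly through glutamine synthetase and glutamate synthase, and needles receive much of their nitrogen from the roots in organic form. The deposited table pairs no identifier with a gene name, so none of these genes could be looked up and no function is attached to any transcript below. For the same reason the labelled organ could not be checked against marker genes. The library nearest to each of the 12 needle libraries by correlation was another needle library.

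Needle libraries held between 73414247 and 134836160 counts. None of 4 library measures differed between the nitrogen forms in a two-sided exact permutation test of 6 against 6 libraries. The unadjusted p was 0.792 for the total count, 0.916 for the share of identifiers at 0 counts, 0.924 for the share of even counts and 0.411 for the share of counts in the 50 most abundant transcripts, and each was 0.924 after Benjamini-Hochberg adjustment over the 4 tests. In 4 needle libraries more than 65% of the counts above 20 were even numbers. They also had the 4 largest shares of identifiers at 0 counts. They were replicate 2 of ammonium at 400 ppm, replicate 3 of ammonium at 720 ppm, and replicates 1 and 2 of nitrate at 400 ppm, so each nitrogen form held 2 of them. They are called low-complexity libraries below.

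Of the 55980 transcripts with at least 1 CPM, 402 differed between the nitrogen forms at an adjusted p under 0.05, which is 0.718% (edgeR quasi-likelihood F-test, Benjamini-Hochberg adjustment over the 117123 transcripts tested). With ammonium 238 were higher, 0.425% of those tested, and 164 were lower, 0.293%. Those that were higher had a median log2 fold change of 0.73, with a range of 0.32 to 2.47. Those that were lower had a median of -0.79 and ran from -4.83 to -0.29. The median over all transcripts of at least 1 CPM was -0.01. Counted by identifier, the largest changes lay on the side of nitrate. A log2 fold change beyond 2 was fitted for 5 of the transcripts that were higher and for 28 of those that were lower. A change beyond 3 was fitted for 0 and 27. The 28 fell into 5 groups when identifier numbers at most 5 apart were joined. Beyond 1 there were 70 higher in 40 such groups and 65 lower in 18. In needles, as in any bulk sample, fewer cells that make a transcript and less of it per cell cannot be told apart.

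**Figure D1:**
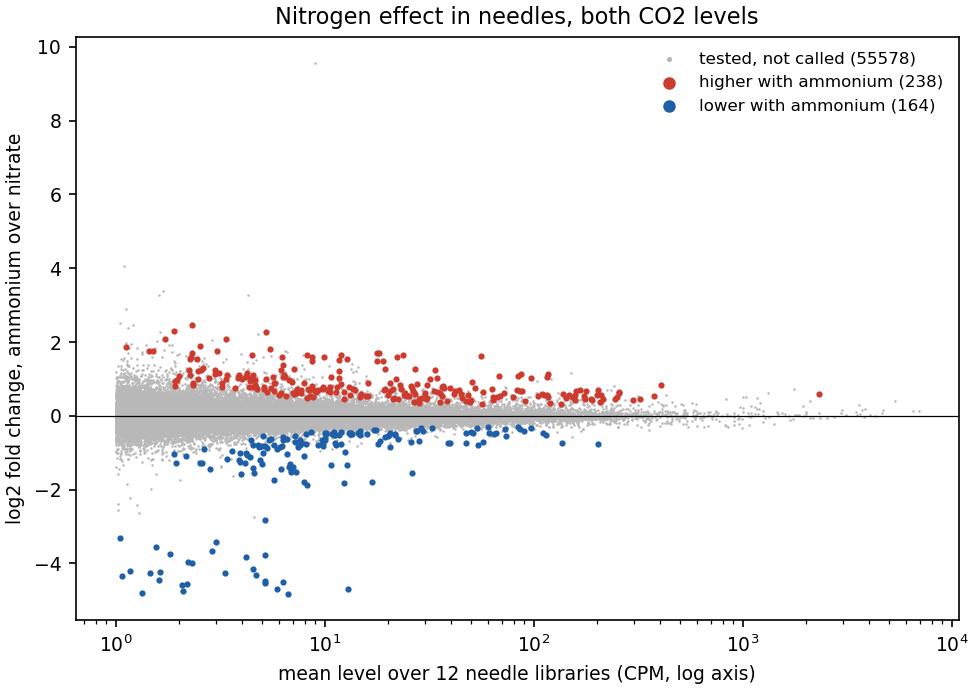
Each point is a transcript with at least 1 CPM in needles. The horizontal axis is its mean level over the 12 needle libraries in CPM on a log axis, the vertical axis its log2 fold change of ammonium over nitrate, red points are the 238 higher and blue points the 164 lower with ammonium, and grey points were not called. A separate group of 28 blue points lies between -4.83 and -2.82, with no counterpart among the red points, whose highest value is 2.47.

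The transcripts that rose with ammonium were more abundant than those that fell. Their median of mean levels was 14.8 CPM, against 7.93 CPM for those that fell and 4.86 CPM for all transcripts of at least 1 CPM. CPM is not corrected for transcript length, which the sources used here do not give, so such comparisons between transcripts mix length and abundance. Between 1 and 10 CPM 98 transcripts rose and 93 fell, 0.485% of the 39378 tested. Between 10 and 100 CPM 104 rose and 67 fell, 1.12% of 15280. At 100 CPM or more 36 rose and 4 fell, 3.03% of 1322. The standard error of a fitted change was smaller at higher levels, with medians of 0.176, 0.0910 and 0.0727 log2 units in the 3 ranges, and the called changes were smaller too, with median sizes of 1.05, 0.63 and 0.55 log2 units. As a description, the 238 transcripts together held 1.56 ± 0.192% of a library's counts with ammonium and 1.03 ± 0.138% with nitrate, and the 164 held 0.232 ± 0.0186% and 0.376 ± 0.0303% (SD, n = 6 each).

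The ammonium and nitrate libraries did not overlap for 122 of the 238 transcripts that were higher, while 0.431% of all transcripts of at least 1 CPM had all 6 ammonium libraries above all 6 nitrate libraries. They did not overlap for 133 of the 164 that were lower, against 0.579% of all transcripts in that direction. These shares follow from the call itself and are given as a description.

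The 28 transcripts that fell by more than 2 log2 units were close to 0 in needles with ammonium. The limit of 2 was chosen after the values were seen. Their median level was 0.289 CPM with ammonium and 4.85 CPM with nitrate, and 27 of the 28 had no overlap between the 6 and 6 libraries. Summed over the 28, the lowest, median and highest ammonium libraries had 5.12, 9.88 and 16.1 CPM, and the lowest, median and highest nitrate libraries had 125.6, 147.0 and 369.5 CPM. Every nitrate library thus stood above every ammonium library in the sum, which the choice of the 28 from these same libraries favours. The 28 identifiers fell into 5 groups when numbers at most 5 apart were joined, so they need not be 28 separate genes.

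PpCO2_139065 had the largest fall among the transcripts of at least 5 CPM without overlap. Its lowest, median and highest levels were 0, 0.386 and 0.911 CPM in the ammonium libraries, and 5.30, 9.74 and 36.6 CPM in the nitrate libraries. All 6 nitrate libraries were above all 6 ammonium libraries, and the highest, replicate 3 of nitrate at 400 ppm, was far above the other nitrate libraries. The log2 fold change was -4.83 (SE 0.59, adjusted p 0.00437, edgeR), and in limma-voom it was -5.08 and not called (adjusted p 0.377). PpCO2_178483, the next by size, ran from 0.0795 over a median of 0.892 to 2.48 CPM with ammonium and from 10.7 over 19.1 to 60.1 CPM with nitrate. The groups again did not overlap, and the same nitrate library was the highest. Its log2 fold change was -4.71 (SE 0.39, adjusted p 0.000172, edgeR).

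PpCO2_178483 belonged to the longest series of called transcripts with consecutive numbers. All 10 identifiers from PpCO2_178481 to PpCO2_178490 were lower with ammonium, with log2 fold changes from -4.71 to -3.77 and no overlap for any of the 10. Their summed level was 0.954, 4.74 and 9.88 CPM in the lowest, median and highest ammonium library and 45.2, 70.4 and 237 CPM in the nitrate libraries. The 5 identifiers just before them were tested and not called, with log2 fold changes of 0.22 to 0.26. The tested identifiers among the 5 just after them were not called either, with values of -0.63 to 0.39.

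The nitrate side also held 37 transcripts with log2 fold changes between -2 and -1, in 13 groups of neighbouring identifiers, and 36 of them had no overlap. The most abundant transcripts that fell had smaller changes. PpCO2_53866 had 130 CPM in the lowest, 149 CPM in the median and 164 CPM in the highest ammonium library, and 231, 259 and 287 CPM in the nitrate libraries. PpCO2_53867 had 86.9, 101 and 109 CPM with ammonium and 150, 173 and 199 CPM with nitrate. Neither transcript showed overlap between the groups, and the spread within each nitrogen form was narrow. PpCO2_53866 fell by 0.76 on the log2 scale (SE 0.07, adjusted p 5.88e-05, edgeR), and PpCO2_53867 by 0.75 (SE 0.08, adjusted p 0.000126). They are neighbours in a series of 6 called identifiers, and reads shared between near-identical transcripts could tie their values together.

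**Figure D2:**
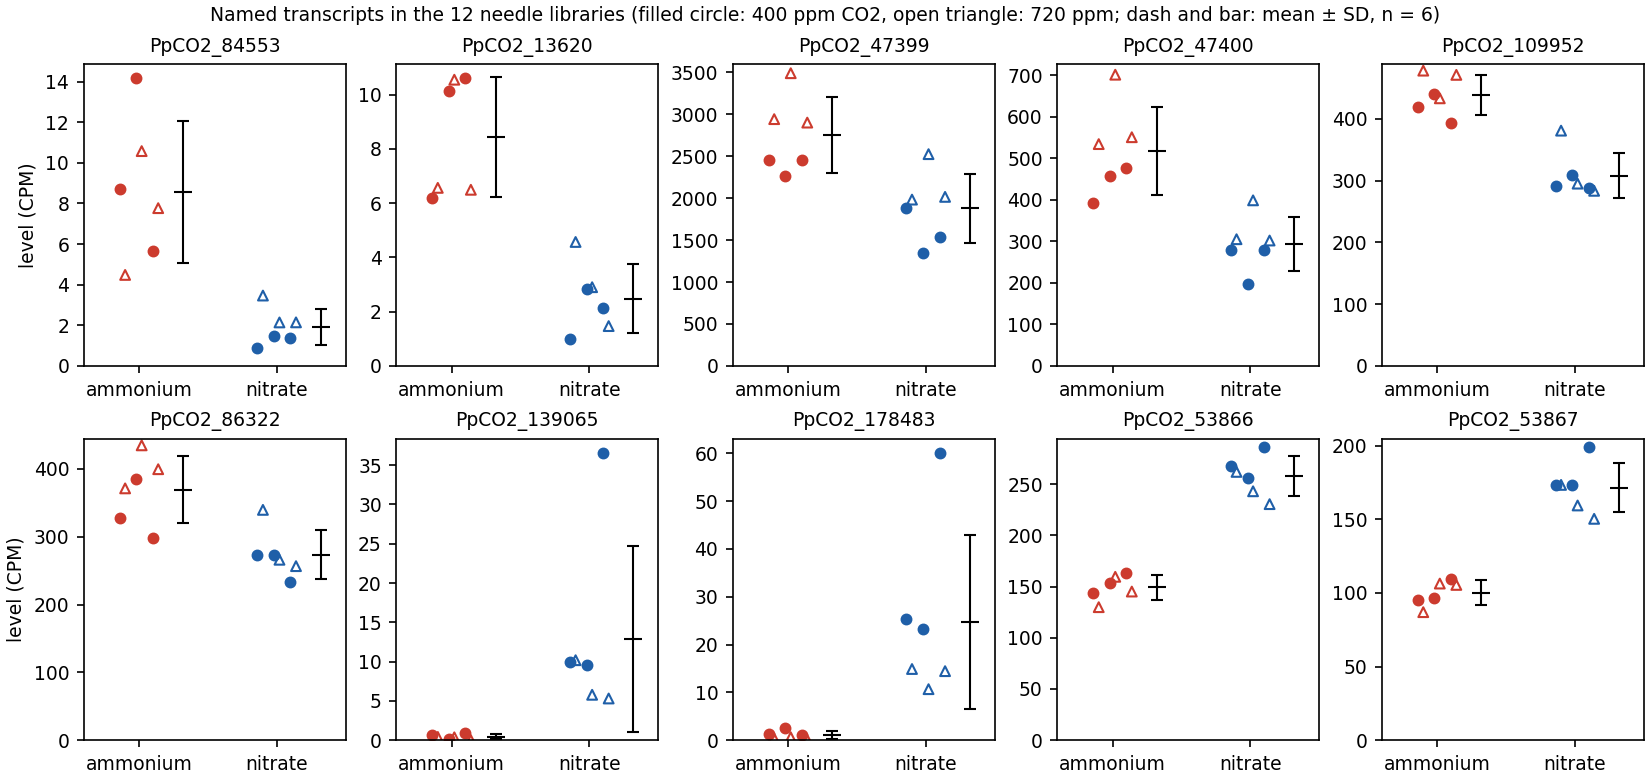
Levels in CPM, on axes from 0, of the 10 transcripts named by rule in the 12 needle libraries, with filled circles for 400 ppm and open triangles for 720 ppm CO2. The dash and bar beside each column give the mean and SD of 6 libraries. In the nitrate columns of PpCO2_139065 and PpCO2_178483 a single 400 ppm library, at 36.6 and 60.1 CPM, stands above the rest.

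On the ammonium side 70 transcripts had a log2 fold change over 1, in 40 groups of neighbouring identifiers, and 49 of them had no overlap. Their summed level was 1377, 1510.4 and 1944 CPM in the lowest, median and highest ammonium library and 579, 636 and 864 CPM in the nitrate libraries. These transcripts were thus already present with nitrate, at a median of 3.13 CPM, and stood at a median of 8.47 CPM with ammonium. None of the 402 transcripts was at 0 counts in all 6 libraries of either nitrogen form. The same held for all 55980 transcripts of at least 1 CPM, so that count of 0 says little.

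PpCO2_84553 had the largest rise among the transcripts of at least 5 CPM without overlap. It ran from 4.48 over a median of 8.25 to 14.2 CPM with ammonium and from 0.880 over 1.81 to 3.46 CPM with nitrate. The groups did not overlap, and the ammonium libraries spread widely. Its log2 fold change was 2.26 (SE 0.33, adjusted p 0.00630, edgeR). The call was lost without the low-complexity libraries (1.88, adjusted p 0.256), without replicate 2 or replicate 3 of nitrate at 400 ppm (adjusted p 0.0517 and 0.0512) and without the low-count filter (adjusted p 0.0638).

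PpCO2_13620 had 6.18, 8.36 and 10.6 CPM in the lowest, median and highest ammonium library and 1.01, 2.47 and 4.57 CPM in the nitrate libraries. No library of one nitrogen form lay within the range of the other. Its log2 fold change was 1.82 (SE 0.30, adjusted p 0.0160, edgeR). Leaving out any of 5 single libraries ended the call, with adjusted p from 0.0635 to 0.0908. These were replicate 2 of all 4 groups and replicate 3 of nitrate at 400 ppm, and leaving out the low-complexity libraries gave an adjusted p of 0.398.

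The most abundant transcript that rose, PpCO2_47399, had 2268, 2681 and 3490 CPM in the lowest, median and highest ammonium library and 1351, 1935 and 2525 CPM in the nitrate libraries. The ranges overlapped, and at each CO2 level the ammonium mean was the higher, with 2396 against 1590 CPM at 400 ppm and 3111 against 2174 CPM at 720 ppm. The log2 fold change was 0.58 (SE 0.10, adjusted p 0.0152, edgeR). It also rose with CO2 in the same fit, by 0.53 log2 units (adjusted p 0.0266). Its nitrogen call was lost in limma-voom (adjusted p 0.0779), without the low-count filter (0.0633), and without replicate 1 of ammonium at 400 ppm (0.0547) or replicate 3 of nitrate at 400 ppm (0.0566).

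The neighbour PpCO2_47400 ran from 392 over a median of 505 to 701 CPM with ammonium and from 197 over 291 to 399 CPM with nitrate. Its lowest ammonium library and its highest nitrate library overlapped by a few CPM. Its log2 fold change was 0.84 (SE 0.12, adjusted p 0.00287, edgeR). The 2 identifiers stand in a series of 3 called transcripts.

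Part of the called transcripts had neighbouring identifiers. The same share over all transcripts of at least 1 CPM is not given here. Numbers that differed by 1 joined 112 of the 238 higher transcripts (47.1%) into 43 series, and 98 of the 164 lower transcripts (59.8%) into 29 series. Counting each series as a single unit left 169 higher and 95 lower units. With numbers up to 5 apart joined, the units were 126 and 70. Neighbouring identifiers may stand for related sequences, which was not tested, since no sequences of these transcripts were used here. The counts of 238 and 164 are counts of identifiers, not of genes.

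The longest series on the ammonium side held the 9 identifiers from PpCO2_22058 to PpCO2_22066. Their log2 fold changes were 0.80 to 1.37, the largest of their adjusted p was 0.00236 (edgeR), and all 9 had no overlap. Their summed level was 444, 491 and 581 CPM in the lowest, median and highest ammonium library and 199, 233 and 290 CPM in the nitrate libraries. The 5 tested identifiers on either side were not called and ran from -0.73 to 0.22.

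**Figure D3:**
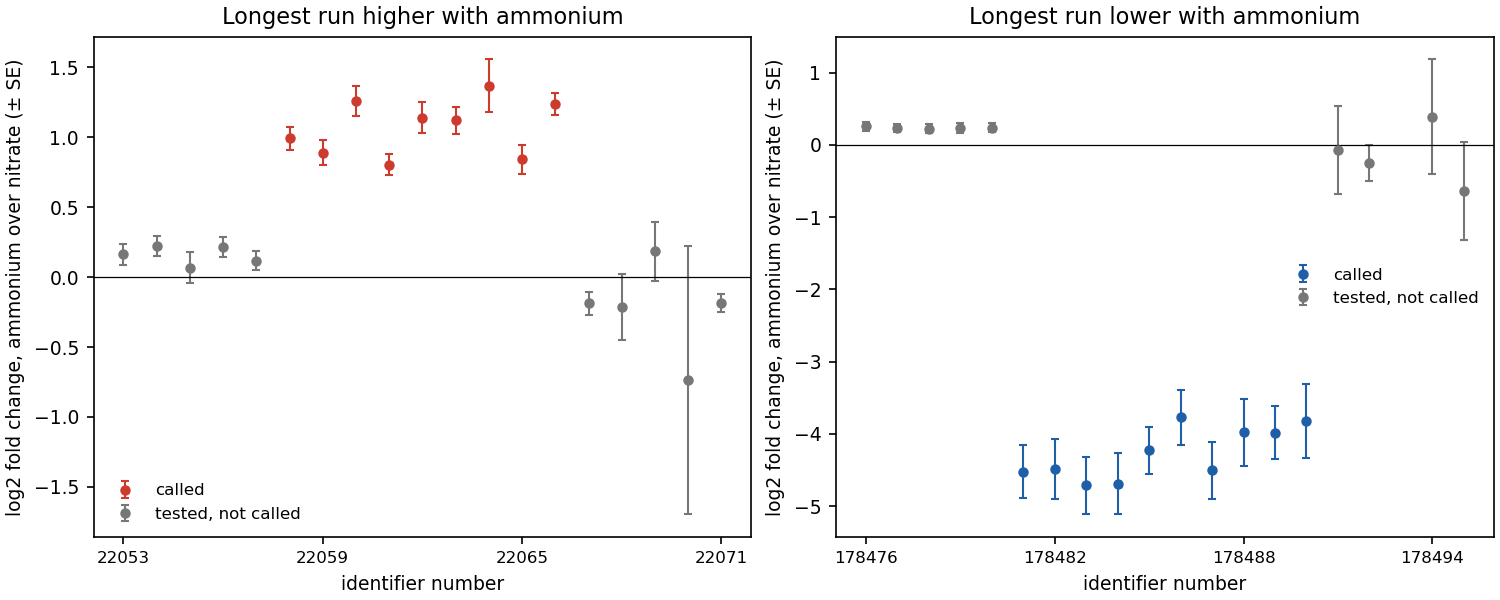
Log2 fold change of ammonium over nitrate in needles, with its SE, against the identifier number, for the longest series of called transcripts in each direction and the tested identifiers among the 5 numbers on either side. Called identifiers are coloured and the others grey. In the left panel 9 identifiers stand at 0.80 to 1.37, and in the right panel 10 stand at -4.71 to -3.77, between neighbours near 0.

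The nitrogen effect was then fitted at each CO2 level, with 3 libraries against 3. At 400 ppm 63 transcripts were higher with ammonium (0.113%) and 53 lower (0.0947%). At 720 ppm 42 were higher (0.075%) and 46 lower (0.0822%). Of the 402 transcripts called over both levels, 49 were called at each level on its own and 283 at neither. The median log2 fold change of the 238 was 0.75 at 400 ppm and 0.71 at 720 ppm, and that of the 164 was -0.78 and -0.83. All 402 had the same sign at both levels, which the selection over both levels favours.

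No transcript of at least 1 CPM showed a nitrogen effect that differed between the CO2 levels at an adjusted p under 0.05 in edgeR (0%). DESeq2 called 22 and limma-voom 0. An unadjusted p under 0.05 was reached by 2463, or 4.4%. Among the 402 it was reached by 22, of which 19 were higher with ammonium. PpCO2_84553 was one of those: its log2 fold change was 2.97 at 400 ppm (adjusted p 0.00685, edgeR) and 1.60 at 720 ppm (adjusted p 0.240), and the difference was -1.36 (SE 0.51, unadjusted p 0.0185, adjusted p 1.000). A difference between the CO2 levels was thus not shown, with 3 libraries in each group.

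**Figure D4:**
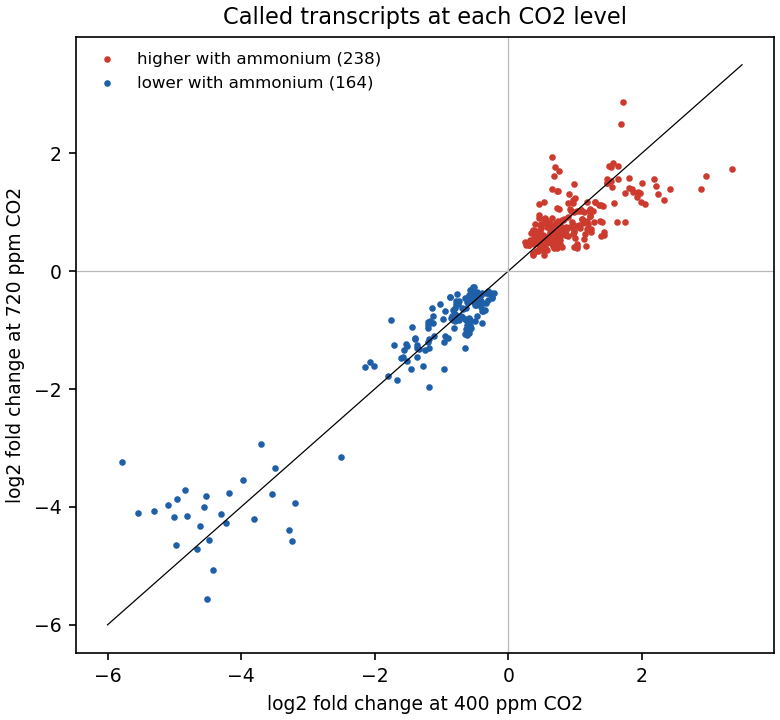
Log2 fold change of ammonium over nitrate at 400 ppm CO2 (horizontal) and at 720 ppm (vertical) for the 402 called transcripts, with the line of equal change. Red points, higher with ammonium, have medians of 0.75 and 0.71, blue points, lower with ammonium, have medians of -0.78 and -0.83, and none lies in a quadrant of opposite signs.

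Levels of the 402 transcripts in the other organs gave their organ profile. A mean level over 2-fold above both stem and roots was found for 73 of the 402 (18.2%), against 12.5% of all transcripts of at least 1 CPM. A mean within 2-fold of both was found for 31.8% of the called transcripts and 55.2% of all. With a limit of 8-fold, 33 of the 402 (8.21%) were above both, against 2.79% of all. Scaling by TMM over the 36 libraries moved the median log2 ratio of needles to stem over all transcripts from -0.37 to 0.15, and that to roots from -0.39 to 0.09. The share above both by 2-fold became 25.6% of the called and 17.3% of all. Relative to that shifting median, the median ratio of needles to roots was 0.56 log2 units for the called transcripts before and 0.58 after. For needles to stem it was 0.45 and 0.47. The 2 directions had unlike profiles. In CPM the mean was highest in needles for 39.9% of the higher and 43.9% of the lower transcripts, against 25.8% of all. It was highest in roots for 28.6% and 43.3%, against 40.2%. After TMM scaling the shares highest in needles were 61.8% and 53.7%, against 47.3%, and those highest in roots 21.8% and 36.6%, against 32.5%.

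The same nitrogen contrast was fitted in the 12 stem libraries and in the 12 root libraries, which took no part in choosing the 402. They came from the same pools of seedlings as the needles, so differences between pools are shared. Of the 229 higher transcripts tested in stem, 25 (10.9%) were higher there too, where 0.27% of the transcripts were. Of the 163 lower ones tested, 58 (35.6%) were lower in stem, against 0.252%. None of the 402 was called in stem in the opposite direction. Among all 55980 transcripts of at least 1 CPM only 51 were, so that count of 0 says little. In roots 106 of 232 (45.7%) were higher, against 8.13%, and 109 of 154 (70.8%) were lower, against 10.2%. In both stem and roots 80 of the 402 were called in the needle direction, 23 higher and 57 lower, against 0.379% of all transcripts of at least 1 CPM.

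The 28 transcripts with the largest falls in needles also fell in the other organs: all 28 were called lower in roots and 27 in stem. Their median levels were 0.116 CPM with ammonium and 8.30 CPM with nitrate in stem, and 1.32 and 50.9 CPM in roots. Median log2 fold changes were -6.34 in stem and -5.64 in roots. The series from PpCO2_178481 to PpCO2_178490 summed to 35.7 ± 7.86 CPM with ammonium and 1582 ± 110 CPM with nitrate in roots (SD, n = 6 each), so nitrate roots held far more of it than nitrate needles, at 97.0 ± 71.1 CPM. PpCO2_139065 had 15 counts in the 6 ammonium stem libraries together, and 12.1 ± 7.01 CPM with nitrate (SD, n = 6).

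The series of 9 that rose with ammonium was called in roots for all 9 members and in stem for 6. It summed to 138 ± 22.4 CPM with ammonium and 38.7 ± 4.89 CPM with nitrate in roots, and to 179 ± 16.9 and 102 ± 15.4 CPM in stem (SD, n = 6 each). Its level was thus highest in needles. Of the 70 transcripts with a rise over 1 log2 unit, 45 were called higher in roots and 11 in stem. PpCO2_13620 was higher in roots as well, where it had 0.268 ± 0.152 CPM with ammonium (SD, n = 6) and 4 counts in total with nitrate, all in 1 of the 6 libraries.

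**Figure D5:**
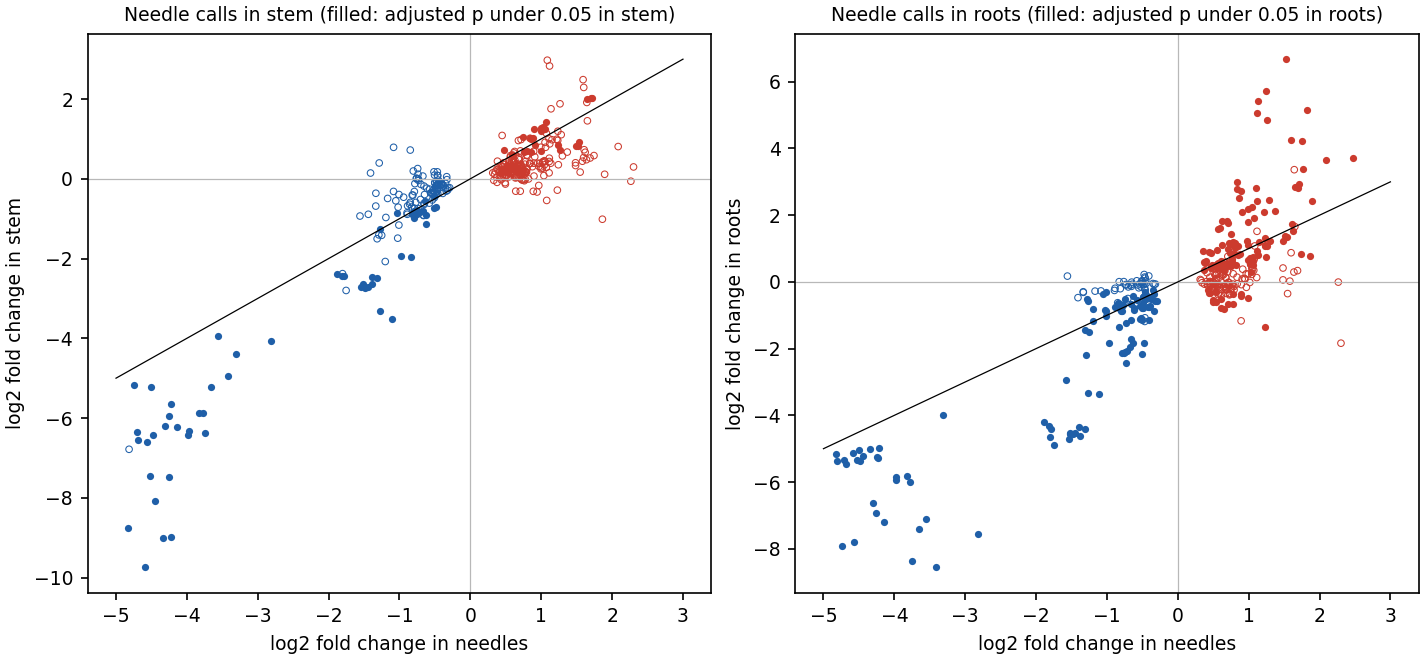
Log2 fold change in stem (left) and in roots (right) against that in needles for the needle calls tested there, filled where called in that organ, with the line of equal change. Many blue points lie below the line in both panels: the 28 with the largest falls in needles have medians of -6.34 in stem and -5.64 in roots.

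Whether the nitrogen effect differed between organs was tested over all 36 libraries. The effect in needles minus that in roots was called above 0 for 816 transcripts of at least 1 CPM (1.46%) and below 0 for 383 (0.684%), and for 97 and 17 of the 402. That total fell from 1199 to 599, 232 and 547 when replicate 1, 2 or 3 of every group was left out, each with fewer libraries, and the 114 among the 402 fell to 78, 44 and 68. Against stem it was called above 0 for 21 (0.0375%) and below 0 for 28 (0.05%), and for 15 of the 402. The total of 49 fell to 2 without the low-complexity libraries and to 3, 7 and 17 without replicates 1, 2 and 3, and the 15 among the 402 fell to 1 and to 3, 2 and 5. The 402 were chosen by their effect in the same needle libraries. That choice favours differences in the direction of the needle effect, so the counts among the 402 are a description.

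Of the 114 differences from roots, 70 lay in the direction of the needle effect (64 higher and 6 lower transcripts), a group that includes transcripts called against the needle direction in roots or not called there. The other 44 had the larger change in roots. All 44 were among the transcripts called in the same direction in needles and roots, a set that the call in roots tilts toward large root effects. Of these, 61 of 106 higher ones and 87 of 109 lower ones changed more in roots, and the difference was called for 11 and 33. Without replicate 1, 2 or 3 it was called for 5, 4 and 6 of the higher and for 28, 26 and 29 of the lower ones. Median log2 fold changes of the lower ones were -1.01 in needles and -1.82 in roots. PpCO2_53866 changed by -0.76 in needles, -0.88 in stem and -2.12 in roots. Its roots had 45, 51 and 54 CPM in the lowest, median and highest ammonium library and 185, 206 and 248 CPM in the nitrate libraries, without overlap. The effect in needles minus that in roots was 1.40 (SE 0.12, adjusted p 1.59e-09, edgeR), and for PpCO2_53867 it was 1.38 (SE 0.11, adjusted p 2.99e-10).

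A series of 8 lower transcripts, PpCO2_143535 to PpCO2_143542, was picked out after its values were seen. The difference from roots was called for all 8 members, also without the low-complexity libraries or any replicate number. The difference from stem, 1.08 to 1.26 log2 units, was called for all 8 over the 36 libraries, but for 0 without the low-complexity libraries, for 0 without replicate 1 or 2 and for 2 without replicate 3. Its median log2 fold change in needles was -1.47, and its members had values of -2.74 to -2.47 in stem. In roots they had values of -4.71 to -4.36. Its summed level with ammonium was 38.4 ± 6.69 CPM in needles, 35.8 ± 4.62 in stem and 43.8 ± 6.08 in roots. With nitrate it was 110 ± 35.2 CPM in needles, 227 ± 61.7 in stem and 1006 ± 112 in roots (SD, n = 6 each). The organ means lay close together with ammonium and far apart with nitrate.

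In roots 18 of the 232 tested transcripts that rose in needles fell with ammonium. That is 7.76%, while 10.2% of all transcripts were lower in roots, so the count is no larger than the background. Their median log2 fold change was 0.60 in needles and -0.53 in roots. The difference between the organs was called for all 18, and for 15, 11 and 14 without replicates 1, 2 and 3. The 18 were chosen by opposite calls in needles and roots, which favours such a difference, so these counts are a description. None of the 154 tested transcripts that fell in needles was called higher in roots, where 8.13% of all transcripts were. A further 166 of the 402, 112 higher and 54 lower, were not called in stem or in roots. Over all transcripts of at least 1 CPM, 82.1% were called in neither. Both counts take a transcript not tested in an organ as not called there. Of the 402, 392 were tested in stem and 386 in roots. The difference from roots was called for 51 of these 166, and for 30, 3 and 18 without replicates 1, 2 and 3. Being called in needles and not in roots is how the 166 were chosen, which favours such a difference. The difference from stem was called for 1 in the main fit. None of the 166 differed from both organs there, so that fit showed an effect particular to needles for none of them. It does not show that such effects are absent. Of the 402, 12 had a mean under 0.1 CPM in stem and 21 in roots, which leaves little to compare. With the pool of seedlings as a block, 64 of the 166 differed from roots and 4 from stem. With DESeq2 size factors 49 and 4 did. How many differed from both organs in these fits is not given here.

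PpCO2_109952 was the most abundant rise that differed from roots. It had 393, 437 and 478 CPM in the lowest, median and highest ammonium library and 284, 293 and 381 CPM in the nitrate libraries of needles. The groups did not overlap, and replicate 1 of nitrate at 720 ppm was the highest nitrate library. Its log2 fold change was 0.54 in needles (SE 0.07, adjusted p 0.000953, edgeR) and 0.09 in roots (adjusted p 0.422), and the difference was 0.48 (SE 0.11, adjusted p 0.0186). Without replicate 2 the difference was 0.38 (adjusted p 0.745), and without replicate 3 it was 0.53 (adjusted p 0.0930). The difference from stem was 0.35 and not called (adjusted p 0.437, edgeR). PpCO2_109952 had a mean of 727 CPM in stem and 374 CPM in needles.

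PpCO2_86322 had 299, 378 and 435 CPM with ammonium and 233, 269 and 340 CPM with nitrate in needles, as the lowest, median and highest library. The ranges overlapped. Its log2 fold change was 0.46 in needles (SE 0.09, adjusted p 0.0315, edgeR) and -0.04 in roots (adjusted p 0.728), and the difference was 0.54 (SE 0.13, adjusted p 0.0290). Leaving out any replicate number ended the call of the difference (adjusted p 0.128 to 0.583). Leaving out single needle libraries ended the call in needles in 6 of 12 fits (adjusted p 0.0515 to 0.0957). The difference of PpCO2_86322 from stem was 0.26 and not called (adjusted p 0.852, edgeR).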

How the data were processed

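RNA of needles, stem and roots was sequenced in pairs of reads on an Illumina instrument, per the series design text. The authors deposited raw, unscaled counts for each transcript identifier, with all 36 libraries side by side. The submitters' processing notes name bcl2fastq, which writes base calls as reads. The aligner, the counter and the transcript assembly are not given in the sources used here. Groups were taken from the sample titles and the series design, since the treatment text in the labels describes a root experiment with other doses. Needle libraries held 73414247 to 134836160 counts. No pair of replicates agreed within sampling noise, with chi-square statistics per degree of freedom of 13.9 to 37.7.

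The 12 needle libraries were fitted in edgeR 4.0.16 (R 4.3.3) with nitrogen form and CO2 level as terms, which left 9 residual degrees of freedom. Transcripts passed filterByExpr with a minimum count of 10 and were scaled by TMM. The test was the robust quasi-likelihood F-test, two-sided. Its p-values were adjusted by Benjamini-Hochberg over all 117123 transcripts that entered the fit, and an adjusted p under 0.05 was called. All 55980 transcripts of at least 1 CPM passed the filter. The interaction came from a fit of 4 group means with 8 residual degrees of freedom. Stem and roots were fitted in the same way, and differences between organs were tested over all 36 libraries. DESeq2 1.42.0 and limma 3.58.1 served as alternatives. Organ ratios used a pseudocount of 0.1 CPM.

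For size, the 2 risen and 2 fallen transcripts with the largest fold change were named among those called with at least 5 CPM and no overlap, at most 1 per group of neighbouring identifiers. For abundance, the 2 of highest mean in each direction were named, and for organs the 2 of highest mean whose effect differed from that in another organ or was called there in the opposite direction. Members, lists, rules and alternatives were chosen with earlier results of these data known.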

Additional observations from a re-analysis of the deposited data

Results flagged for a closer look

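In 28 groups of 6 needle libraries, given by the 10 named transcripts and 4 library measures in each nitrogen form, the highest and the lowest library were compared with the rest by Dixon's ratio, with a critical value of 0.625. Chance marks about 1 in 20 such groups, and 3 were marked. PpCO2_109952 had 381.0 CPM in replicate 1 of nitrate at 720 ppm, and the next nitrate needle library had 309.6 CPM. PpCO2_139065 had 36.6 CPM in replicate 3 of nitrate at 400 ppm, with 10.2 CPM in the next library, and PpCO2_178483 had 60.1 CPM in the same library, with 25.3 CPM in the next. Without that library PpCO2_178483 and PpCO2_139065 were still called lower with ammonium.

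The nitrogen effect differed between needles and roots for 4 of the named transcripts, by a test of the difference over all 36 libraries. The difference, needles minus roots, was 0.48 log2 units for PpCO2_109952 and 0.54 for PpCO2_86322, which rose in needles. It was 1.40 for PpCO2_53866 and 1.38 for PpCO2_53867, which fell less in needles than in roots. The rule that named these 4 picked transcripts whose effect differed between organs, so the differences are no separate support for that pattern.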

How the results depend on the processing

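The count of 402 transcripts, 238 higher and 164 lower with ammonium, stayed within 1.5 times under a fit of group means, other size factors, no low-count filter, a filter at 1 CPM, limma-voom and without the low-complexity libraries (351 to 537). Of the 351 called without the low-complexity libraries, 225 were among the 402. Leaving out the low-complexity libraries keeps only replicate 3 of nitrate at 400 ppm. DESeq2's own test called 1308, with 814 higher and 494 lower. A required fold change over 2 left 135, with 70 higher and 65 lower. At 400 ppm alone 116 were called, 63 higher and 53 lower, and at 720 ppm alone 88, 42 higher and 46 lower, with fewer libraries in each contrast. Leaving out each of the 12 needle libraries gave 256 to 425 calls, with 144 to 277 higher and 112 to 152 lower. The total fell to 263 without replicate 3 of nitrate at 400 ppm and to 256 without replicate 3 of nitrate at 720 ppm. Of the 402, 212 were called in all 12 of these fits and 120 in fewer than 6. The higher calls fell to 151 and 152 without replicate 2 of ammonium at 400 and at 720 ppm, and to 146 without replicate 3 of nitrate at 400 ppm. All 402 kept their sign in every alternative in which they were fitted, which their selection from the same libraries favours. For the difference between CO2 levels, DESeq2 called 22, and leaving out single libraries gave 0 to 3. No count of it is given without the low-complexity libraries, where nitrate at 400 ppm has a single library. The difference between needles and stem was called for 49 transcripts, for 2 without the low-complexity libraries, and for 3 to 17 without a replicate number. Between needles and roots it was called for 1199, and for 232 to 599 without a replicate number. Needle calls repeated in stem ran from 74 to 86 and in roots from 201 to 220 when single libraries were left out. The cause of these changes was not tested.

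Groups shared replicate numbers, and the labels do not say that a number marks a shared origin between groups. Same-numbered needle libraries of different groups deviated from their group means with correlations of -0.06 to 0.45, over 0.1 in 11 of 18 pairs. Differently numbered libraries of different groups had correlations of -0.26 to 0.12. The main fit did not pair libraries by number, because the labels state no pairing. The best match of 10 of the 12 libraries had its own number, which is a hint from the data and not part of the design. With the number as a replicate block 479 transcripts were called, 297 higher and 182 lower. With the pool of seedlings as a block, 58 differences from stem and 1277 from roots were called.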

Other observations

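Of the 65 transcripts that fell by more than 1 log2 unit in needles, 35 had their highest nitrate level in replicate 3 of nitrate at 400 ppm. In stem that replicate was the highest nitrate library for 35 of them, and in roots for 5. Stem and roots of a replicate came from the same pool of seedlings. The 65 identifiers fell into 18 groups when numbers at most 5 apart were joined, so they need not be separate genes. How often that replicate was the highest nitrate library over all transcripts is not given here. The reason for these counts was not tested.

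In needles 257 transcripts of at least 1 CPM had a fitted change of more than 1 log2 unit and were not called. The library with the highest level was a low-complexity library for 157 of them. Most often it was replicate 2 of ammonium at 400 ppm, with 75, or replicate 3 of ammonium at 720 ppm, with 52. The share highest in a low-complexity library over all transcripts of at least 1 CPM is not given here. PpCO2_98080 had the largest fitted change of all, 9.56 log2 units, with an adjusted p of 0.316 (edgeR). At 400 ppm its ammonium libraries had 13.4, 38.3 and 0.178 CPM, and at 720 ppm 0, 0 and 56.1 CPM. It was at 0 in 5 of the 6 nitrate libraries and at 0.152 CPM in the other, so 3 of the 6 ammonium libraries carried nearly all of its counts.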
